A study of Mus musculus with 4 samples.

Results

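The genes described here are 10 that encode inflammatory cytokines and CXC chemokines: Tnf, Il1a, Il1b, Il6, Il10, Il18, Il1rn, Cxcl2, Cxcl10 and Cxcl16. They were taken by gene name from the 24473 genes of the deposited expression table, and each name matched 1 row. The count table held 55401 genes, and of these 15733 had counts high enough to be tested, all 10 cytokine and chemokine genes among them. RNA was taken from BV-2 cells, mouse microglia immortalised in culture and used in place of the brain's own macrophages. There were 2 libraries of cells labelled SIX2 knockdown, titled sh s1 and sh s2, and 2 control libraries labelled wild type, titled sh c1 and sh c2. SIX2 is a homeobox protein that binds DNA and controls transcription. All 4 libraries came from cells given lipopolysaccharide (LPS) at 100 ng/mL for 24 h, so no library shows these genes without LPS and their induction cannot be measured here. Both groups carry the sh prefix in their titles, and the labels do not say whether the controls received a hairpin of their own, nor whether the 2 libraries of a group came from separate cultures. The p-values therefore speak only for the variation among these 4 libraries, some of which may be technical.

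LPS is sensed by the receptor TLR4, which activates NF-kB and, through a second arm, interferon regulatory factors. Microglia answer with TNF, members of the interleukin-1 family and interleukin-6, which amplify inflammation, with interleukin-10 and the interleukin-1 receptor antagonist, which restrain it, and with chemokines that attract leukocytes. Many of these messages are short-lived, because RNA-binding proteins of the TTP (Zfp36) family bind AU-rich elements near their 3′ ends and speed their decay.

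The promoter windows of 3 of the genes are shown. Tnf and Cxcl10 were the 2 most abundant of the 10, and their fitted changes lay on opposite sides of no change, though neither passed the test. Cxcl2 is a chemokine of the same family as Cxcl10 at a lower level. Each window, from RefSeq on GRCm38.p6, runs 5′ to 3′ on the gene's own strand from 250 bases before the start to 50 after it. The 3 windows are chr17:35201958-35202257 on the minus strand for Tnf, chr5:92348840-92349139 on the minus strand for Cxcl10 and chr5:90903649-90903948 on the plus strand for Cxcl2. Capitals mark matches, on either strand, to the NF-kB consensus, to the interferon-stimulated response element GAAANNGAAA, to the TATA box TATAAA and to the AP-1 site TGANTCA.
Tnf: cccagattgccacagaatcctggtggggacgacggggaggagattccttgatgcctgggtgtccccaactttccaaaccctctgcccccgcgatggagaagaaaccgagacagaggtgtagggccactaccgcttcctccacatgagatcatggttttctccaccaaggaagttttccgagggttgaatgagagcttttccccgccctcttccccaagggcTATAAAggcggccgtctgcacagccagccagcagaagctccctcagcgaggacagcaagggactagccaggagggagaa
Cxcl10: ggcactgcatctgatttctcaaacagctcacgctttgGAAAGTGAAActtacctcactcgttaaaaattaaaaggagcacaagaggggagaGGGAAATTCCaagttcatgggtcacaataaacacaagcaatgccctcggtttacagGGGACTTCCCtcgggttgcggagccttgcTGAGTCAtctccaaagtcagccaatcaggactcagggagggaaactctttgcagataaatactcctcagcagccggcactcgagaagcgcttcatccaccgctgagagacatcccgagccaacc
Cxcl2: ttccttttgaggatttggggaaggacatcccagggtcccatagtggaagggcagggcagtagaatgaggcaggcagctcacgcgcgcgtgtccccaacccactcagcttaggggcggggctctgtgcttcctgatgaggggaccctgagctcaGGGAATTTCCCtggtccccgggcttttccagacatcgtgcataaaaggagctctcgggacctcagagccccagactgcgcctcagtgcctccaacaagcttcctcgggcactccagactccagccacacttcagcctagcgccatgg

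A RefSeq window was given for 8 of the 10 genes, which left Il10 and Cxcl16 without one, and Il1rn had 3 starts, so there were 10 windows in all. The NF-kB consensus was matched in 3 of the 10 windows, against 4.51% of all 32851 windows of this length. The Cxcl10 window held 2 matches, GGGAAATTCC from position -159 and GGGACTTCCC from position -103. Positions are counted from the RefSeq start of each window, which can differ from the gene coordinates given below. In Cxcl2 a pair of overlapping matches, GGGAATTTCC and GGAATTTCCC, began at positions -97 and -96, and in Il6 the match GGGATTTTCC began at position -44. The interferon element was matched in 1 of the 10 windows, that of Cxcl10, as GAAAGTGAAA from position -213, against 3.44% of all windows. The TATA letters were matched in 5 of the 10 windows, against 13.6% of all windows. In Tnf, Il1a and Il1b they began at positions -29, -32 and -31, while Il18 (position -175) and the third Il1rn window (position 15, after the start) held them on the opposite strand, as TTTATA. The AP-1 site was matched in 4 of the 10 windows (Il1a, Il6, Il1rn and Cxcl10), against 7.81%. These matches are descriptions of the letters in the windows, not of binding.

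None of the 10 genes passed the test between SIX2 knockdown and control cells. With edgeR's quasi-likelihood test and Benjamini-Hochberg adjustment over all 15733 genes, 0 of the 10 had an adjusted p under 0.05, against a background of 0.953% of all genes tested. At an unadjusted p of 0.05, 1 of the 10 was higher, which was Tnf, and 0 were lower, against 14.2% of all genes (7.52% higher and 6.70% lower), and DESeq2 also gave 0 of 10 after adjustment, against 4.19% of the genes it adjusted, and 1 of 10 before it. In 5 of the 10 the knockdown libraries lay wholly on 1 side of the controls, against 47.6% of all genes (23.8% in each direction): Tnf and Il18 lay higher in both knockdown libraries, and Il1b, Il10 and Cxcl10 lower. With so few genes these shares are near the background. The median log2 fold change (knockdown over control) of the 10 genes was 0.03, against -0.01 for all genes tested. That background shifted with level. Its median was -0.26 for genes averaging under 1 count per 1 M, -0.11 from 1 to 5, -0.03 from 5 to 20 and 0.03 from 20 to 100. Il1a and Cxcl16 lay in the lowest of these ranges, and Il1b, Il6, Il10, Il18 and Cxcl2 in the next.

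The depth of each library sets how finely these genes could be read. The knockdown libraries held 74.7 and 64.3 M counts and the control libraries 75.7 and 61.0 M, and low values stepped by about 4 counts per sequenced fragment. Six2 itself (ENSMUSG00000024134) had 0 counts in all 4 libraries, where 0 allows up to 12 counts (3 fragments), or 0.161 and 0.187 CPM (counts scaled to a library of 1 M) in knockdown libraries and 0.159 and 0.197 CPM in control libraries, counting error only. The knockdown could therefore not be checked on its target, and the groups rest on their labels. Of 13 macrophage and microglia markers, none was at 0 in every library, and their summed level was 1422 and 1410 FPKM (fragments scaled to gene length and library total) in knockdown and 1509 and 1571 FPKM in control libraries. Within that list the microglia markers Cx3cr1 and P2ry12 were at or below 0.165 FPKM, while Tmem119 had 5.69 and 4.67 FPKM in knockdown and 10.2 and 8.83 FPKM in control libraries. Cd68 (463 and 443 FPKM in knockdown, 468 and 485 in control), Tyrobp (404 and 411 against 412 and 433) and Fcer1g (261 and 260 against 286 and 304) carried most of the sum. All of these were lower in both knockdown libraries, by small margins for Cd68 and Tyrobp. Aif1 (5.57 and 6.64 FPKM in knockdown, 11.8 and 14 in control), Adgre1 (45.6 and 48.1 against 71.3 and 76.9) and Csf1r (35.6 and 33.0 against 48.5 and 49.3) were also lower in both knockdown libraries, as were Tmem119 and P2ry12. Laptm5 (112 and 120 against 110 and 110 FPKM) was higher in both, and Ptprc, Itgam, Spi1 and Cx3cr1 overlapped between the groups. Over all genes tested, by CPM, 23.8% lay lower and 23.8% higher in both knockdown libraries. Markers of 6 other cell types were low beside the macrophage list, and in 5 of the 6 lists both knockdown sums lay below both controls. For single genes that share was 23.8% of all genes tested, and none was worked out for sums. Genes tested at under 1 CPM leaned lower in general, with a median log2 fold change of -0.26 against -0.01 for all genes tested. The 5 neuron markers summed to 0.408 and 0 FPKM in knockdown and 1.08 and 0.961 FPKM in control libraries, and the 5 neutrophil markers to 4.46 and 1.04 against 13.0 and 9.26 FPKM, mostly from S100a8 and S100a9. For the 5 oligodendrocyte markers the sums were 1.22 and 0.0444 FPKM in knockdown and 2.07 and 1.90 FPKM in control libraries. Astrocyte, fibroblast and lymphocyte markers, 5 of each, summed to at most 0.214 FPKM in any knockdown and 0.495 FPKM in any control library, with the defining markers Col3a1, Cd3e and Cd3d at 0 counts in all 4. The part of these transcripts in the values of the low cytokine genes was not tested, and in bulk RNA fewer cells of a type and less RNA per cell cannot be told apart.

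Across the 10 genes, level per transcript length spanned more than 2 orders of magnitude, and Tnf stood far above the rest. By deposited FPKM, which scales to gene length and allows genes to be compared, Tnf had 41.2 and 42.7 FPKM in knockdown and 35.5 and 31.9 FPKM in control libraries, which placed its mean in the top 9.65% of genes tested. Cxcl10 came next, with 6.53 and 5.80 FPKM in knockdown and 7.77 and 7.58 FPKM in control libraries, in the top 36.2%. The other 8 genes lay between the top 62.0% (Il1rn) and the top 85.4% (Il1a). Il1rn, at a mean over all libraries of 1.70 FPKM, and Il6, at 1.44 FPKM, each stood apart from their neighbours in the order. Il18, Cxcl2, Il1b and Il10, at means of 0.974, 0.914, 0.809 and 0.769 FPKM, could not be ranked, because each overlapped its neighbour in the 4 libraries. Cxcl16 (0.202 FPKM) and Il1a (0.182 FPKM) were below all the others on average and overlapped each other.

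**Figure D1:**
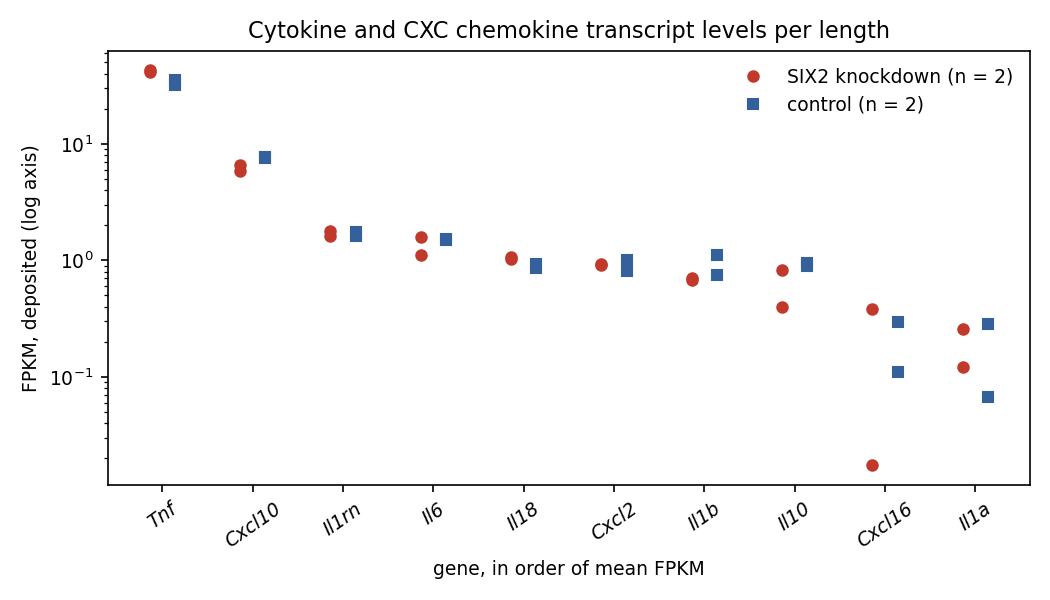
Deposited FPKM (log axis) of each of the 10 genes in order of mean level, with knockdown libraries as red circles and control libraries as blue squares, 2 of each. Tnf lies between 31.9 and 42.7 FPKM and Cxcl10 between 5.80 and 7.77 FPKM, while Cxcl16 ranges from 0.0175 to 0.383 FPKM within the knockdown group alone.

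The 10 genes together summed to 54.8 and 54.9 FPKM in knockdown and 50.1 and 47.1 FPKM in control libraries. Tnf made up 75.2% and 77.8% of that sum in knockdown and 70.7% and 67.7% in control libraries, and Cxcl10 11.9% and 10.6% against 15.5% and 16.1%. The ratio of Tnf to Cxcl10 within a library, which needs no scaling between libraries, was 6.31 and 7.36 in knockdown and 4.56 and 4.21 in control. These ratios were chosen after the values were seen, and 2 libraries against 2 cannot go below p = 0.333 in a two-sided exact permutation test, so none is given a test.

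Tnf encodes the trimeric cytokine TNF, made as a membrane protein and shed by the protease ADAM17. The gene (ENSMUSG00000024401) lies on the minus strand of chromosome 17, 35199381 to 35202007 (GRCm38), with no overlapping gene model. It had 5616 and 5001 counts in knockdown and 4901 and 3540 counts in control libraries, or 75.8 and 79.0 CPM against 64.3 and 57.2 CPM after TMM scaling for library size and composition. Both knockdown libraries lay above both controls. The means were 77.4 ± 2.23 CPM in knockdown and 60.8 ± 4.96 CPM in control libraries (SD, n = 2 each). The log2 fold change was 0.35 ± 0.09 (SE, 95% interval 0.13 to 0.57), or 1.27-fold. It did not pass after adjustment over all genes (adjusted p = 0.171, edgeR). The direction was the same in all 15 other settings tried, with adjusted p between 0.0756 and 0.509, and the interval leaves room for a difference of 1.09 to 1.48-fold.

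Neither TNF receptor gene nor Adam17 passed. Tnfrsf1b, which encodes TNF receptor 2, had 186 and 179 CPM in knockdown and 238 and 236 CPM in control libraries. The groups did not overlap, and its log2 fold change of -0.38 ± 0.07 missed the threshold (SE, adjusted p = 0.0742, edgeR). Tnfrsf1a, the widely expressed TNF receptor 1 that carries a death domain, had 56.7 and 53.9 CPM in knockdown and 60.8 and 61.4 CPM in control libraries (adjusted p = 0.500, edgeR). Adam17 had 192 and 169 CPM against 188 and 224 CPM, where the groups overlapped.

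The interleukin-1 family members were low, and by FPKM the antagonist gene exceeded both agonist genes in every library. Il1a and Il1b encode the agonists of the interleukin-1 receptor, and Il1rn encodes the receptor antagonist that binds without signalling. Il1a and Il1b lie 54.6 kb apart on the minus strand of chromosome 2 (129299610 to 129309972 and 129364570 to 129371139), and Il1rn lies on the plus strand of the same chromosome (24336853 to 24351494). Il1b had 1.46 and 1.55 CPM in knockdown and 1.59 and 2.33 CPM in control libraries. Knockdown libraries were lower without overlap, but the nearest libraries nearly met, and control replicate 2 stood above the other 3. Its log2 fold change was -0.38 ± 0.39 (SE, 95% interval -1.32 to 0.56, adjusted p = 0.739, edgeR), and it was -0.08 without control replicate 2.

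Il1rn had 11.2 and 10.2 CPM in knockdown and 10.8 and 9.90 CPM in control libraries, which overlapped. Its log2 fold change of 0.05 ± 0.16 had a 95% interval of -0.33 to 0.42, so changes beyond 1.34-fold up or to below 0.798-fold lie outside it. By FPKM the ratio of Il1rn to Il1b was 2.65 and 2.31 in knockdown and 2.36 and 1.47 in control libraries, and the groups overlapped. Il1a was near the detection floor, with 43 and 18 counts in knockdown and 12 and 38 counts in control libraries. Those counts stand for 11 and 4 fragments in knockdown and 3 and 10 in control libraries. The exact Poisson 95% intervals of all 4 overlapped (the widest apart were 0.619 to 8.77 fragments in control replicate 1 and 5.49 to 19.7 in knockdown replicate 1), counting error only. No difference in Il1a was detectable at this depth, and its 95% interval ran from -2.20 to 2.55 on the log2 scale.

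Il18 encodes an interleukin-1 family cytokine that caspase-1 must cleave, and it induces interferon gamma in lymphocytes. Its gene lies on the plus strand of chromosome 9 (50554827 to 50581840). It had 1.26 and 1.18 CPM in knockdown and 1.08 and 0.986 CPM in control libraries, higher in both knockdown libraries. The log2 fold change of 0.24 ± 0.45 was smaller than its error (95% interval -0.83 to 1.31, adjusted p = 0.876, edgeR). The protease gene Casp1 had 56.7 and 56.4 CPM in knockdown and 49.2 and 46.2 CPM in control libraries (log2 fold change 0.25 ± 0.09, SE, adjusted p = 0.273, edgeR). Those groups did not overlap, and the difference did not pass. The signalling receptor gene Il1r1 had 1.53 and 1.53 CPM in knockdown and 3.92 and 2.20 CPM in control libraries (adjusted p = 0.319, edgeR), and Il18r1, a receptor chain for interleukin-18, had 0 counts in all 4.

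Il6 and Il10 encode cytokines with opposed roles, the first an inducer of the acute phase and the second a brake on macrophage activation, and both signal through STAT3. Il6 (plus strand of chromosome 5, 30013114 to 30019981) had 3.05 and 4.39 CPM in knockdown and 4.06 and 4.12 CPM in control libraries. The knockdown libraries lay on either side of the controls, and the log2 fold change was -0.14 ± 0.29 (SE, adjusted p = 0.894, edgeR). It became 0.10 without knockdown replicate 1. Il10 (plus strand of chromosome 1, 131019845 to 131024974) had 1.23 and 0.600 CPM in knockdown and 1.39 and 1.29 CPM in control libraries. Both knockdown libraries lay below the controls, but they differed from each other 2.05-fold, and knockdown replicate 2 set most of the gap. The Il10 values rest on 23 and 10 fragments in knockdown and 26 and 20 in control libraries. Their exact Poisson 95% intervals all overlapped, counting error only. The widest apart were 4.8 to 18.4 fragments in knockdown replicate 2 and 17 to 38.1 in control replicate 1. The log2 fold change of Il10 was -0.55 ± 0.53 (SE, 95% interval -1.80 to 0.70, adjusted p = 0.712, edgeR), which became -1.16 without knockdown replicate 1 and -0.12 without knockdown replicate 2. Knockdown replicate 2 was also the library with 0 FPKM for all 5 neuron markers, and the part of that in the Il10 value was not tested.

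Among the receptors of these cytokines, Il10ra, the ligand-binding chain for interleukin-10, had 8.09 and 7.64 CPM in knockdown and 15.2 and 11.9 CPM in control libraries. Its groups did not overlap, and the log2 fold change of -0.78 ± 0.18 did not pass (SE, adjusted p = 0.123, edgeR). Il10rb, the other chain of that receptor, had 65.5 and 36.2 CPM in knockdown and 73.7 and 38.7 CPM in control libraries. There the groups overlapped (log2 fold change -0.14 ± 0.55, SE, adjusted p = 0.952, edgeR), and replicate 1 was the higher library in each group. Il6ra, the ligand-binding chain for interleukin-6, had 60.9 and 54.0 CPM in knockdown and 45.3 and 47.8 CPM in control libraries (log2 fold change 0.31 ± 0.10, SE, adjusted p = 0.240, edgeR). Il6st, which encodes the shared signalling chain gp130, had 41.6 and 44.1 CPM against 41.5 and 41.6 CPM. Casp1, Il1r1, Il18r1, Il10ra, Il10rb, Il6ra and Il6st came from the lists of receptors and proteases and were chosen for mention after their values were seen.

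**Figure D2:**
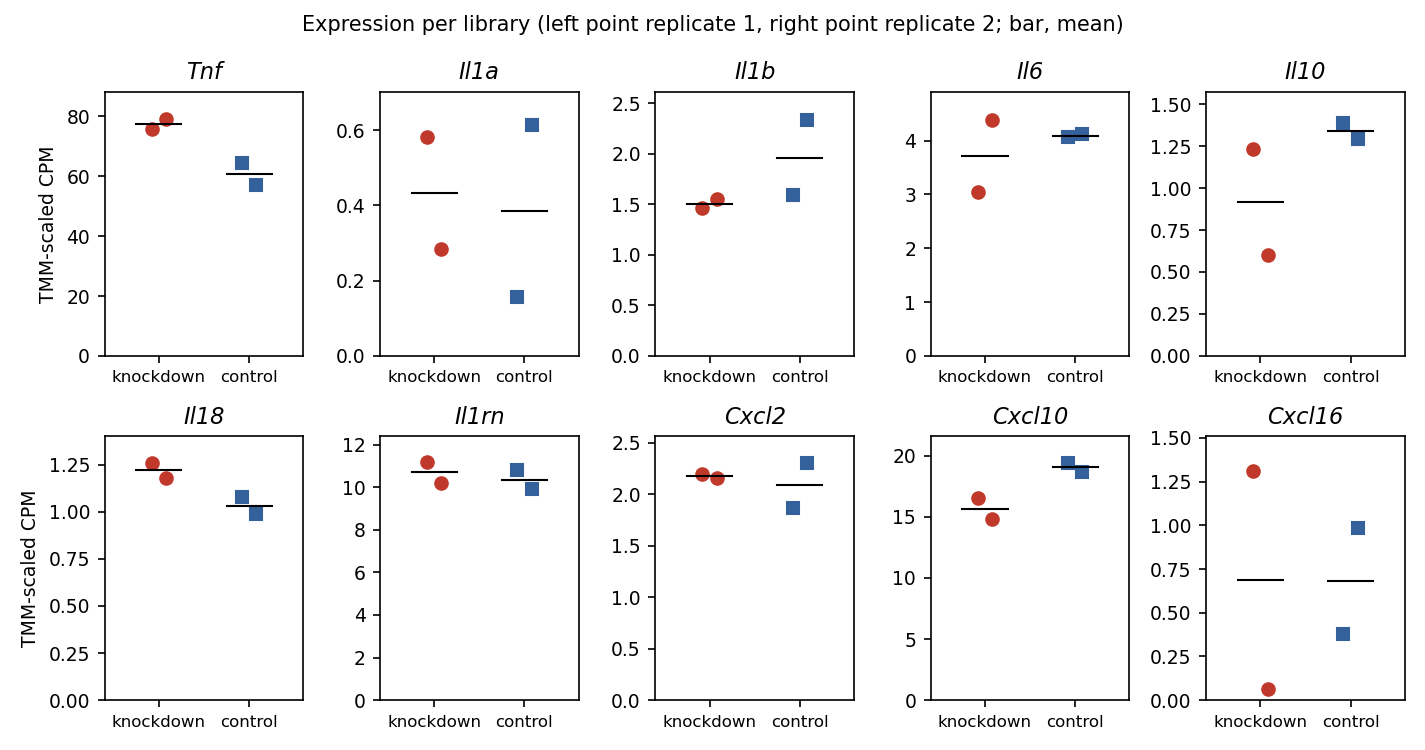
TMM-scaled CPM of each of the 10 genes per library, with knockdown in red on the left and control in blue on the right of each panel, replicate 1 left of replicate 2, and a bar at the mean of 2. Each axis starts at 0. Tnf lies at 75.8 and 79.0 CPM in knockdown against 64.3 and 57.2 CPM in control libraries, Cxcl10 at 16.5 and 14.8 against 19.4 and 18.7 CPM, and the Cxcl16 and Il1a replicates of a group lie far apart.

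The CXC chemokines attract leukocytes through G-protein-coupled receptors: CXCL2 recruits neutrophils through CXCR2, CXCL10 is an interferon-induced ligand of CXCR3 on T cells, and CXCL16 is a membrane-anchored ligand of CXCR6. Cxcl2 and Cxcl10 lie 1.44 Mb apart on chromosome 5 (90903871 to 90905938, plus strand, and 92346638 to 92348882, minus strand). Cxcl10 had 16.5 and 14.8 CPM in knockdown and 19.4 and 18.7 CPM in control libraries. Both knockdown libraries lay below both controls, at means of 15.7 ± 1.24 and 19.0 ± 0.483 CPM (SD, n = 2 each). The log2 fold change of -0.28 ± 0.13 did not pass (SE, 95% interval -0.59 to 0.03, adjusted p = 0.401, edgeR). It kept its sign in all 15 other settings, between -0.37 and -0.20.

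Cxcl2 had 2.20 and 2.16 CPM in knockdown and 1.87 and 2.31 CPM in control libraries. The knockdown values sat inside the control range, and the log2 fold change was 0.06 ± 0.34 (SE, 95% interval -0.75 to 0.87). Within a library, the FPKM ratio of Cxcl10 to Cxcl2 was 6.96 and 6.40 in knockdown and 9.66 and 7.51 in control libraries. Cxcl16 (minus strand of chromosome 11, 70453983 to 70459984) had 97 and 4 counts in knockdown and 29 and 61 counts in control libraries. The knockdown replicates were the highest and the lowest of the 4, at 24 and 1 fragments, with exact Poisson 95% intervals of 15.4 to 35.7 and 0.0253 to 5.57 that did not overlap. Their CPM differed 20.7-fold, so the spread within a group exceeded the difference between the group means. The log2 fold change of 0.02 ± 1.31 moved between -3.40 and 0.95 over the other settings, and no direction is given for Cxcl16.

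**Figure D3:**
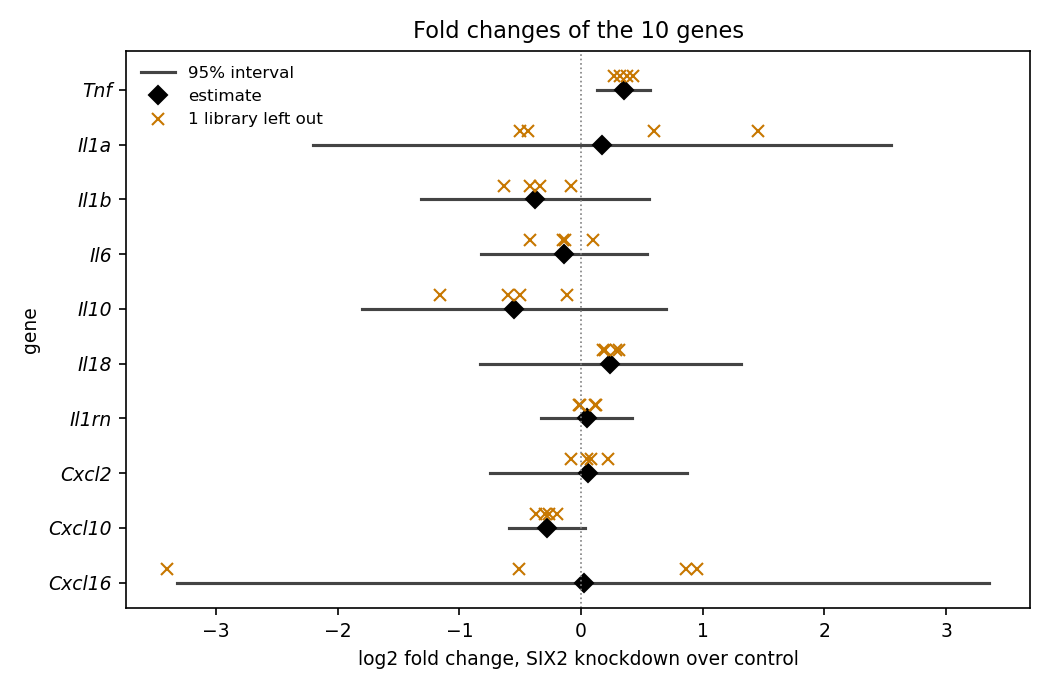
Log2 fold change of knockdown over control for each gene (black diamond) with its 95% interval from the edgeR fit (line), and the values with each of the 4 libraries left out in turn (orange crosses). The interval of Tnf runs from 0.13 to 0.57 and those of the other 9 genes include 0, and the Cxcl16 values run from -3.40 to 0.95.

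Several of the 10 genes overlap another gene on the opposite strand, and whether the counting used the strand is not stated in the sources used here, so reads of the partners may not be separated. Il1a overlaps Gm14023, which had 34 and 14 counts in knockdown and 12 and 12 in control libraries, against 43 and 18 counts in knockdown and 12 and 38 in control libraries for Il1a itself. Cxcl16 overlaps Zmynd15, which had 81 and 22 counts in knockdown and 99 and 49 in control libraries. Il18 overlaps Bco2, at 415 and 356 counts in knockdown and 438 and 355 in control libraries, and Tex12, at 8 counts or fewer. Il1b overlaps Il1bos and Cxcl10 overlaps Art3, each at 5 counts or fewer in every library. Values of Il1a, Il18 and Cxcl16 are uncertain for this reason as well as for their low counts.

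Beyond the 10 genes, 93 genes of the same pathway were listed by role, and 73 of them could be tested. Of the 73, 1 rose and 1 fell after adjustment over all genes, against 0.407% of all genes higher and 0.547% lower, and 71 did not pass. Zfp36l2, an RNA-binding protein of the TTP family that binds AU-rich messages, rose. It had 165 and 146 CPM in knockdown and 105 and 105 CPM in control libraries, with a log2 fold change of 0.57 ± 0.08 (SE, adjusted p = 0.0428, edgeR). Maf, the transcription factor c-Maf, which in macrophages is known to activate Il10, fell. It had 40.1 and 43.4 CPM in knockdown and 65.9 and 75.6 CPM in control libraries, with a log2 fold change of -0.76 ± 0.10 (SE, adjusted p = 0.0304, edgeR). In both genes the groups did not overlap. Each call was lost when any 1 of the 4 libraries was left out (adjusted p 0.0882 to 0.209 for Zfp36l2 and 0.0657 to 0.157 for Maf) and without edgeR's robust option (0.105 and 0.0841). Of 15 other settings, Zfp36l2 passed in 5 and Maf in 6, with the direction kept in all.

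Of 14 genes that regulate cytokine message stability, all 14 were tested, and beside Zfp36l2 the other 13 did not pass. Zfp36l1, of the same family, was lower without overlap, at 51.3 and 47.9 CPM in knockdown and 68.4 and 61.1 CPM in control libraries. Its log2 fold change was -0.39 ± 0.10 (SE, adjusted p = 0.151, edgeR). Zfp36 had 49.6 and 41.9 against 53 and 47.9 CPM, which overlapped. Zfp36l1 and Zfp36 were chosen for mention after their values were seen. Mapkapk2, the kinase that stabilises Tnf message, had 905 and 879 CPM in knockdown and 872 and 833 CPM in control libraries, and Khsrp had 298 and 242 against 258 and 242 CPM. Over the list, the median of the log2 fold changes was -0.03. Of 20 transcription regulators of cytokine genes, all were tested, Maf fell and 19 did not pass, and the median was -0.18. In that list 6 of 20 reached an unadjusted p of 0.05, all 6 of them lower. Over all genes tested, 14.2% reached that level in either direction and 6.70% were lower. Fitted values were below 0 for 16 of 20 genes, against 51.1% of all genes tested, and 11 of 20 genes were lower without overlap, where 23.8% of all genes were. Like the other lists, this list was written with earlier results of these data known, and its genes were read from the same 4 libraries. These shares therefore describe the list and are not a test of it. Cebpb, a transcription factor of inflammatory and acute phase genes, had 196 and 147 CPM in knockdown and 208 and 224 CPM in control libraries. Nfkbia, the NF-kB inhibitor that NF-kB itself induces, had 162 and 148 against 144 and 149 CPM, which overlapped.

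The other cytokine list had 13 of 21 genes tested and 0 passed, with 1 at an unadjusted p of 0.05. That level was reached by 14.2% of all genes tested. Mif, the migration inhibitory factor, was its most abundant gene, at 878 and 748 CPM in knockdown and 805 and 823 CPM in control libraries, and Tgfb1 had 168 and 136 against 145 and 146 CPM. Ifnb1, Il12b, Il7 and Tnfsf10 had 0 counts in all 4 libraries, which allows up to 12 counts in each. Of the other CXC chemokines, 3 of 11 were tested and 0 passed, with 2 at an unadjusted p of 0.05 (14.2% over all genes). Pf4, platelet factor 4, had 66.4 and 73.2 CPM in knockdown and 55.4 and 53.3 CPM in control libraries (log2 fold change 0.36 ± 0.09, SE, adjusted p = 0.151, edgeR). Cxcl14 had 0.540 and 0.553 CPM in knockdown and 1.80 and 1.67 CPM in control libraries (log2 fold change -1.66 ± 0.46, SE, adjusted p = 0.185, edgeR). Both separated the groups without passing. Of the chemokines closest to Cxcl2 and Cxcl10, Cxcl1 and Cxcl9 had 0 counts in every library, Cxcl3 had 17 counts in knockdown replicate 2 alone, and Cxcl11 had 4 counts there alone. These 4 and the 4 cytokine genes at 0 counts were chosen for mention after their values were seen.

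Receptors and decoys had 14 of 17 genes tested and 0 passed, where 4 reached an unadjusted p of 0.05 (1 higher, 3 lower), with a median of 0.00. The proteases that process or release cytokines had 9 of 10 genes tested and 0 passed, where 1 higher and 1 lower reached that level, with a median of -0.10. Over all genes tested, 7.52% were higher and 6.70% lower at that level. Gsdmd, the pore protein through which interleukin-1 beta leaves the cell, had 51.9 and 49.9 CPM in knockdown and 54.5 and 54.1 CPM in control libraries. DESeq2 called 7 genes of these lists in all, against 2 with edgeR, and it called more over all genes as well, 680 against 150.

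**Figure D4:**
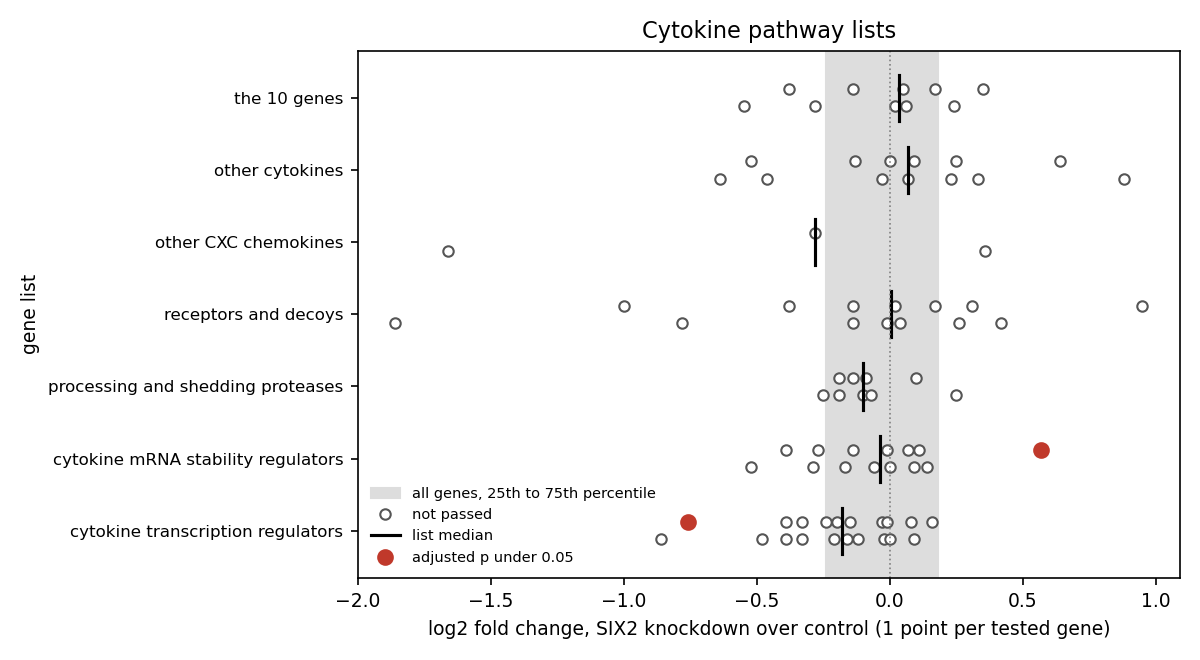
Log2 fold change of knockdown over control for every tested gene of the 10 and of 6 pathway lists, 1 point per gene (vertical offsets only separate points), with the list median as a black bar and the middle 50% of all genes tested (-0.24 to 0.18) as a grey band. Zfp36l2 at 0.57 and Maf at -0.76 are the filled points that passed an adjusted p of 0.05.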

How the data were processed

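RNA sequencing was done on 4 libraries of LPS-treated BV-2 cells, 2 SIX2 knockdown and 2 control, grouped by the genotype label. Poly(A) RNA was bound to oligo-dT beads, its second strand was marked with dUTP, and both ends were sequenced, per the labels' protocols. The deposited counts are estimated counts per Ensembl gene, whole but not normalised by the authors. The submitters' processing notes name Bowtie 0.12.2 and build mm8 but no counting program. FPKM, so called per the file headers, had been deposited already scaled for length and depth. Among counts of 1 to 20, 42.1% to 47.2% were multiples of 4, so 1 fragment was taken as 4 counts and the floor as 12 counts. Coordinates are those of the files; 21093 of 24422 genes (86.4%) had the same position as in GENCODE M21 on GRCm38, 9 of the 10 genes among them, so that build is named. Cxcl10 stops 7 bases before its GENCODE end coordinate. Another 12 columns match no labelled sample and were not used. Replicates differed beyond counting error, with a chi-square over degrees of freedom of 16.9 in knockdown and 16.2 in control.

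The test was edgeR 4.0.16 under R 4.3.3: filterByExpr, TMM scaling, a robust quasi-likelihood fit without covariates, a two-sided F test and Benjamini-Hochberg adjustment over all genes. SE and 95% intervals come from that fit. DESeq2 1.42.0, limma 3.58.1 (voom and trend), other scalings, filters and count scales, a replicate block and leaving out each library were alternatives. The 10 genes and the lists were chosen with earlier results of these data known. Named genes are the 10, Six2, every list gene that passed and up to 2 per list with the highest FPKM that did not; others are marked as chosen after their values were seen, and so are the separate marker genes named.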

Additional observations from a re-analysis of the deposited data

How the results depend on the processing

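None of the 10 genes passed under any of the alternatives. Tnf, Il1b, Il10, Il18 and Cxcl10 kept their direction in all 15 alternatives. Cxcl16 turned to -0.01 with library totals alone, -0.79 with limma-voom, -0.02 and -0.28 with limma-trend on log2(FPKM + 1) and log2(FPKM + 0.1), and -0.81 with the replicate block. Leaving out 1 library at a time gave log2 fold changes of -3.40 to 0.95 for Cxcl16, -0.50 to 1.45 for Il1a, -0.42 to 0.10 for Il6, -0.02 to 0.12 for Il1rn and -0.08 to 0.22 for Cxcl2, and their signs changed there. The stricter filter removed Il1a.

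The number of changed genes over all genes, 150 as reported, was 680 with DESeq2, 65 with limma-voom, 7 without the robust option, 297 without a filter, 3 with limma-trend on either FPKM scale, 7 at an adjusted p under 0.01 and 41 to 112 with 1 library left out. The 2 changed list genes became 1 with library totals alone, 7 with DESeq2, 4 without a filter, and 0 with limma-voom, limma-trend on either scale, no robust option, an adjusted p under 0.01 or any library left out. With the replicate block, which pairs libraries by the number in their titles, 0 genes were called over all genes and 0 in the lists. Same-numbered libraries deviated from their group means with a correlation of -0.185 over 9982 genes, and 2 pairs cannot show whether the numbers pair the libraries. A crossed pairing, chosen after seeing the data, called 119 genes, 0 of the 10 and 2 of the lists, and gave Cxcl16 -0.90. The cause of these shifts was not tested. Il1a, Il18 and Cxcl16 had 24 fragments or fewer in every library, which limits how finely they can be read. The knockdown replicates of Cxcl16, at 24 and 1 fragments, also differed beyond counting error.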
